A study of Mus musculus with 44 samples.

Results

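The comparison described here set cultured primary microglia of wild-type (WT) mice against cultured primary astrocytes of WT mice, across all expressed genes. It used 12 of the 44 RNA-seq libraries of a series on Apoe genotype, namely 6 WT microglia and 6 WT astrocyte libraries, chosen by their labels. Both groups carried the unedited mouse Apoe gene, received no treatment, were grown after purification in media made for the human forms of these cells, and were tagged as batch 2. Each group held 3 female and 3 male libraries, and RIN, a score of RNA integrity, ran from 9.8 to 9.9 in microglia and 9.3 to 9.5 in astrocytes. Strain, age, brain region and days in culture are not stated in the labels, nor whether replicates were separate animals, so that p-values measure only the spread between these libraries.

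Microglia are the resident macrophages of the brain. They arise from yolk-sac progenitors, depend on the receptor Csf1r for survival, and sense, engulf and digest debris, synapses and lipoproteins. Astrocytes are neural cells related to radial glia. They take up glutamate and potassium, are coupled by gap junctions, export lipid to neurons, and provide growth factors, including ligands of Csf1r. Both cell types secrete apolipoprotein E, the main lipid carrier of the brain.

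Total counts ran from 86313947 to 116396632 in microglia and 83239599 to 129273661 in astrocytes. Levels are given as CPM, the count relative to the TMM-scaled library total, and, where genes are compared with each other, per exon length (TPM). TPM carries no TMM scaling, so differences between the cell types are read from CPM. Microglia libraries were concentrated in fewer genes: 422 to 490 in microglia and 829 to 882 in astrocytes held the upper 50% of the counts, and 11428 to 11649 in microglia and 13590 to 13919 in astrocytes reached 1 CPM. The 10 most counted genes took 18.2% to 19.9% in microglia and 6.82% to 7.19% in astrocytes, and mitochondrially encoded genes 1.07% to 1.5% in microglia and 2.85% to 3.22% in astrocytes. Pearson correlations of log2 CPM across genes were 0.986 to 0.991 between microglia libraries, 0.990 to 0.994 between astrocyte libraries and 0.675 to 0.722 across the cell types. Microglia library 4 stood apart: the ribosomal-RNA-like gene CT010467.1 had 12428 CPM there, against 238 to 703 CPM in the other 5 microglia libraries, and Mir6236, Lars2 and Malat1 were also highest there. Without it the log2 fold change of Lars2, microglia over astrocytes, was 0.65, against 1.84 with it, and that of CT010467.1 was 0.25, against 1.85. Over all genes, without that library 17559 genes were called (7984 higher and 9575 lower in microglia), against 17293 with it.

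The labels were first checked against 6 defining genes. Aif1, which encodes the calcium-binding protein Iba1, had 143 to 209.5 CPM (median 159) in the microglia libraries, against 0.346 to 1.46 CPM (median 0.865) in the astrocyte libraries. Csf1r, the receptor for Csf1 and Il34, had 2063 to 2608 CPM (median 2220) in the microglia libraries, against 15.7 to 45.5 CPM (median 27.4) in the astrocyte libraries. Cx3cr1, the fractalkine receptor, had 2502 to 3119 CPM (median 2639.8) in the microglia libraries, against 9.6 to 22.6 CPM (median 16.8) in the astrocyte libraries. In the other direction, the intermediate filament gene Gfap had 6.0 to 27 CPM (median 10.8) in the microglia libraries, against 4012 to 4879 CPM (median 4446) in the astrocyte libraries. Aqp4, the water channel of astrocyte endfeet, had 0.974 to 4.69 CPM (median 1.65) in the microglia libraries, against 541 to 680.1 CPM (median 636) in the astrocyte libraries. Slc1a3, the glutamate transporter GLAST, had 2.05 to 5.61 CPM (median 3.75) in the microglia libraries, against 1112 to 1275 CPM (median 1174) in the astrocyte libraries. In bulk RNA, fewer cells of a type and less RNA per cell cannot be told apart. The groups overlapped for none of the 6, and each differed in the direction of its label. Aif1 had a log2 fold change, microglia over astrocytes, of 7.60 (SE 0.25, edgeR adjusted p = 7.69e-11), Csf1r of 6.27 and Cx3cr1 of 7.40. Gfap had one of -8.35 (SE 0.46, edgeR adjusted p = 9.25e-09), Aqp4 of -8.11 and Slc1a3 of -8.23.

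**Figure D1:**
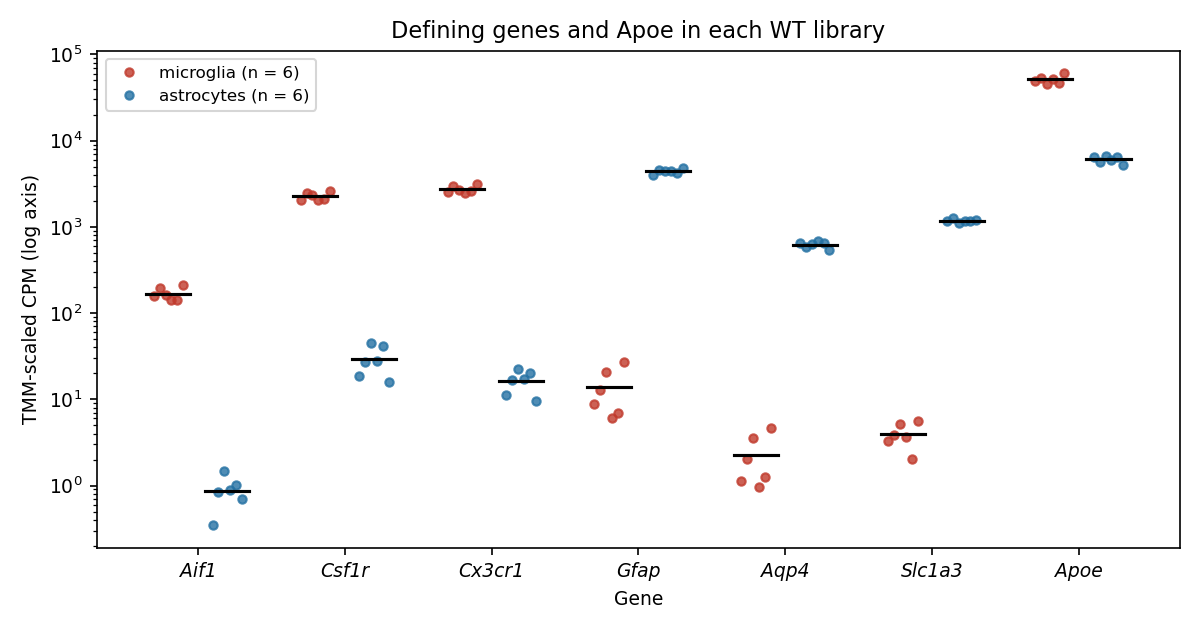
Levels of the 6 defining genes and of Apoe in each library, in TMM-scaled CPM on a log axis, with microglia on the left and astrocytes on the right of each gene. Points are libraries and bars are group means; Apoe averaged 51269 CPM in microglia and 6066 CPM in astrocytes.

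Nearly every expressed gene differed in level between the cell types. Of 19331 genes tested with edgeR's quasi-likelihood test, 17293 (89.5%) were called at a Benjamini-Hochberg adjusted p under 0.05, 8033 (41.6%) higher in microglia and 9260 (47.9%) lower, with a median log2 fold change of -0.13. Because so many genes passed, a second call asked for a difference of more than 4-fold: 2139 genes (11.1%) were more than 4-fold higher in microglia and 4585 (23.7%) more than 4-fold lower. With library totals in place of TMM scaling the median fell by 0.49 on the log2 scale, and 5818 genes were higher and 11491 lower, so changes under about that size depend on the scaling. For 2750 genes the interval of the difference lay within 0.5 on the log2 scale. At least 1 CPM in every microglia library with under 0.1 CPM in every astrocyte library was seen for 107 genes, and the mirror pattern for 521. Reads shared with a neighbour limit some values: over 20% of the exon length of Cd72, Ctsd, Hvcn1, Adora1, P2ry1 and CT010467.1 overlaps another gene, and the use of strand in counting is not stated. Near-identical copies make levels of Lyz2, Fth1, Ftl1, Tmsb4x, C4b and the H2 genes uncertain. Long non-coding genes were more than 4-fold lower in microglia for 785 of 2103 tested, against 3487 of 14536 protein-coding genes.

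**Figure D2:**
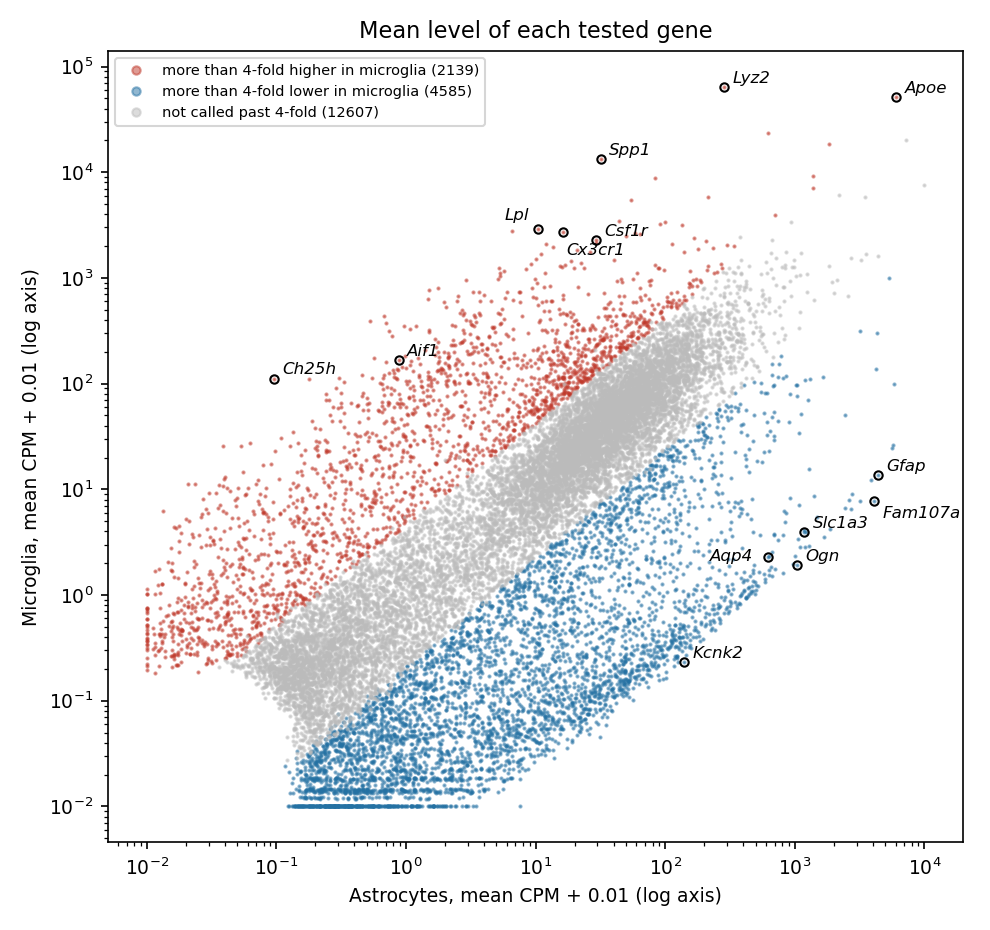
Mean level of each tested gene in microglia (vertical axis) against astrocytes (horizontal axis), in TMM-scaled CPM on log axes, with the defining genes and the most different abundant genes named. Genes called more than 4-fold higher in microglia are 2139 and those more than 4-fold lower are 4585.

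The largest differences towards microglia among genes with a mean of at least 100 CPM there were those of Ch25h, Atp6v0d2, Itgax, Cd72, Clec12a, Gatm, Hpgd, Fcrls, Cd36, Spp1, Mmp12 and St8sia4. Ch25h, which makes an antiviral oxysterol, had 87.7 to 139 CPM (median 112) in the microglia libraries, against 0.0133 to 0.219 CPM (median 0.077) in the astrocyte libraries (log2 fold change 10.44, SE 0.25, edgeR adjusted p = 4.79e-12). Atp6v0d2, a subunit of the proton pump that acidifies lysosomes, had 251 to 548 CPM (median 389) in the microglia libraries, against 0.12 to 0.797 CPM (median 0.536) in the astrocyte libraries (log2 fold change 9.59, SE 0.37, edgeR adjusted p = 2.85e-10). Spp1, which encodes the secreted glycoprotein osteopontin, had 10617 to 15768 CPM (median 13429) in the microglia libraries, against 18.8 to 48.8 CPM (median 31.1) in the astrocyte libraries (log2 fold change 8.70, SE 0.30, edgeR adjusted p = 1.13e-10). None of these groups overlapped, and the astrocyte level of Ch25h was near the floor of 3 counts in a library (0.0232 to 0.036 CPM). Several of the others are surface receptors of myeloid cells: Itgax, the integrin chain CD11c, averaged 112 CPM in microglia and 0.169 CPM in astrocytes, the inhibitory lectin gene Cd72 439.7 CPM in microglia and 0.668 CPM in astrocytes, and Fcrls 2797 CPM in microglia and 6.62 CPM in astrocytes. The scavenger receptor gene Cd36 averaged 628 CPM in microglia and 1.47 CPM in astrocytes. Mmp12, the macrophage elastase, averaged 318 ± 137 CPM in microglia and 0.735 ± 0.334 CPM in astrocytes. Gatm, which makes the creatine precursor guanidinoacetate, averaged 773 ± 48.2 CPM in microglia and 1.5 ± 0.497 CPM in astrocytes.

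In the other direction, among genes with a mean of at least 100 CPM in astrocytes, the largest differences were those of Klhdc8a, Kcnk2, Vgll3, Sox1, Ccn5, Ogn, Fam107a, Slc24a4, Chrdl1, Mapk4, Fgfr2 and Lhx2. Kcnk2, the background potassium channel TREK-1, had 0.0922 to 0.356 CPM (median 0.209) in the microglia libraries, against 129 to 152 CPM (median 139) in the astrocyte libraries (log2 fold change -9.32, SE 0.13, edgeR adjusted p = 5.61e-15). Ogn, a small leucine-rich matrix protein, had 0.922 to 3.44 CPM (median 1.6) in the microglia libraries, against 845 to 1212 CPM (median 992) in the astrocyte libraries (log2 fold change -9.09, SE 0.34, edgeR adjusted p = 2.12e-10). Fam107a, an actin-binding protein of astrocytes and radial glia, had 3.2 to 14.3 CPM (median 6.63) in the microglia libraries, against 3899 to 4424 CPM (median 3995) in the astrocyte libraries (log2 fold change -9.08, SE 0.40, edgeR adjusted p = 1.04e-09). Again no group overlapped. Chrdl1, a secreted BMP antagonist of astrocytes, averaged 0.373 CPM in microglia and 195 CPM in astrocytes, the fibroblast growth factor receptor gene Fgfr2 0.356 CPM in microglia and 186 CPM in astrocytes, and the forebrain transcription factor gene Lhx2 0.241 CPM in microglia and 124 CPM in astrocytes. Vgll3, a cofactor of TEAD transcription factors, averaged 0.202 CPM in microglia and 118 CPM in astrocytes.

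The promoters of 6 of these genes are shown because each holds a short motif of transcription factors. Genes of PU.1, RUNX and NFI factors differed between the cultures, and levels of TEAD genes are not reported here. Each line gives the 150 bases before the RefSeq transcription start (GRCm38.p6), written 5′ to 3′ on the gene's strand, with the match of the 1 motif it was chosen for in capitals. Those motifs were GAGGAAGT for PU.1 (the product of Spi1), TGTGGTT for RUNX factors, GGAATG for TEAD factors and TTGGCA, part of the site of NFI factors, searched on both strands. Matches of other motifs searched are left in lower case: the Cd72 window also holds the NFI letters, the Spp1 window the RUNX letters, the Mmp12 window a C/EBP match and the Ogn window the TEAD letters. Positions of the 6 windows are chr4:43454627-43454776 (Cd72, strand -), chr5:104434961-104435110 (Spp1, strand +), chr9:7344247-7344396 (Mmp12, strand +), chr3:87263525-87263674 (Fcrls, strand -), chr16:65815039-65815188 (Vgll3, strand +) and chr13:49607865-49608014 (Ogn, strand +).
Cd72: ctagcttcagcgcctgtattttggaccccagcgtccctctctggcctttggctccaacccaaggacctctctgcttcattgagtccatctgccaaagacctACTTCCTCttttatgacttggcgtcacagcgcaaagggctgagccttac
Spp1: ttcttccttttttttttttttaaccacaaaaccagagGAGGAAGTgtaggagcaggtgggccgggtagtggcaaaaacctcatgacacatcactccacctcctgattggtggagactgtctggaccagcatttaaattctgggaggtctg
Mmp12: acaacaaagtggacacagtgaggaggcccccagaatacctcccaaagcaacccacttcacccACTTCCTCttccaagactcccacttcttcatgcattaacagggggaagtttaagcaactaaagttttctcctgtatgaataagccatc
Fcrls: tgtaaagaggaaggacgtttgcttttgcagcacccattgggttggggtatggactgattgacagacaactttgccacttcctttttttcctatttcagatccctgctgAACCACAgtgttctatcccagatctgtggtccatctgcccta
Vgll3: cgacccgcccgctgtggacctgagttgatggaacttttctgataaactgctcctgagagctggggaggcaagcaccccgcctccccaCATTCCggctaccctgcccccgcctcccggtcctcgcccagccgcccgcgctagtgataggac
Ogn: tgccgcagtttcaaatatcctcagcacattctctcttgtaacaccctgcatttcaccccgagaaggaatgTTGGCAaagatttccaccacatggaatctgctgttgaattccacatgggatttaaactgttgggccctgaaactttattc

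In the Cd72, Spp1 and Mmp12 lines the PU.1 letters begin 49, 113 and 88 bases before the start. In the Fcrls line the RUNX letters begin 42 bases before it, in the Vgll3 line the TEAD letters 63 bases, and in the Ogn line the NFI letters 80 bases. Over the 250 bases before each start, the PU.1 letters were present in 6.32% of the windows of genes more than 4-fold higher in microglia, in 1.48% of those of genes more than 4-fold lower, in 2.44% of those of all tested genes and in 2.44% of all 32851 windows. The letters GTTGCCAT, part of the site of RFX factors, were present in 0.482%, 1.51%, 1.06% and 1.12% in the same order. RUNX letters were present in 4.39%, 3.61%, 3.24% and 4.4%, TEAD letters in 11.3%, 14%, 11.3% and 12.6%, and NFI letters in 10.3%, 12%, 10.2% and 12.3%. The PU.1 letters share GGAAGT with a second ETS motif, CCGGAAGT, which was present in 2.52%, 1.97%, 5.09% and 2.88%. The 5 other motifs searched were TTGCNNAA for C/EBP factors, at 10.1%, 7.11%, 7.57% and 9.56%, TGANTCA for AP-1, at 7.88%, 5.76%, 4.89% and 6.75%, and GGAANNGAA for ETS and IRF factors together, at 7.93%, 5.22%, 6.12% and 6.99%. TCACGTGA, the M-box, was present in 1.39%, 0.623%, 1.31% and 0.785%, and ACAATGG for SOX factors in 1.93%, 2.34%, 1.87% and 3.02%. A match describes letters and is not a measured binding site.

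Listed transcription factor genes divided by cell type, in lists chosen with earlier results of these data known. Sall1, a factor listed with the microglia markers instead, was lower in microglia. Of 18 tested myeloid transcription factor genes all 18 were higher in microglia, 17 of them more than 4-fold, with a median log2 fold change of 5.25; over all genes tested 41.6% were higher, 11.1% more than 4-fold higher, and the median was -0.13. Spi1, which encodes PU.1, had 366 to 407 CPM (median 398) in the microglia libraries, against 1.83 to 4.78 CPM (median 2.91) in the astrocyte libraries (log2 fold change 6.99, SE 0.22, edgeR adjusted p = 4.05e-11). Its partner Irf8 averaged 442 CPM in microglia and 3.74 CPM in astrocytes, Runx1 139 CPM in microglia and 1.89 CPM in astrocytes and Cebpa 691 CPM in microglia and 16.3 CPM in astrocytes. All 20 neural and astrocyte transcription factor genes were more than 4-fold lower in microglia, against 23.7% of all genes tested, with a median of -8.34. Sox9, a gliogenic factor, had 0.497 to 1.46 CPM (median 1.01) in the microglia libraries, against 402 to 446 CPM (median 418) in the astrocyte libraries (log2 fold change -8.83, SE 0.22, edgeR adjusted p = 5.33e-12). Rfx4 averaged 0.141 CPM in microglia and 71.1 CPM in astrocytes, Nfib 0.803 CPM in microglia and 232 CPM in astrocytes and Id4 1.95 CPM in microglia and 975 CPM in astrocytes. Zbtb20 and the NFI gene Nfix were the members with most counts in microglia, at 43.3 against 910.1 CPM and 28.9 against 480.5 CPM. The genes of forebrain identity Emx2, Otx1 and Lhx2 averaged 35.3, 49.9 and 124 CPM in astrocytes.

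The most abundant genes per length differed in kind. In microglia they were Lyz2, Apoe, Ctsd, Spp1, Tmsb4x, Fth1, mt-Co1, Ftl1, C1qa and Ctsb, which encode secreted, lysosomal and iron-storage proteins among others. Lyz2, lysozyme, led with 125952 ± 5497 TPM in microglia and 954 ± 354 TPM in astrocytes. In astrocytes they were mt-Co1, mt-Cytb, Apoe, Cst3, Mt3, Cpe, Fth1, mt-Nd2, mt-Nd1 and mt-Nd5. Mt3, a brain metallothionein, had 15.8 ± 7.58 TPM in microglia and 11092 ± 445 TPM in astrocytes, and Cpe, which trims neuropeptides, had 26.1 ± 5.96 TPM in microglia and 9557 ± 755 TPM in astrocytes. Apoe was among the 3 highest in both, with 61742 ± 6066 TPM in microglia and 12426 ± 1052 TPM in astrocytes. Its CPM was 45309.8 to 60310 CPM (median 50714) in the microglia libraries, against 5169 to 6680.3 CPM (median 6206) in the astrocyte libraries (log2 fold change 3.08, SE 0.07, edgeR adjusted p = 2.2e-13).

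Among 18 tested genes that mark microglia in the resting brain, 17 were more than 4-fold higher in microglia and 1 was lower. The share more than 4-fold higher over all genes tested was 11.1%. The list had a median of 5.98, with sums of 21257 to 26038 CPM in the microglia libraries and 306 to 664 CPM in the astrocyte libraries. The complement subunit genes C1qa, C1qb and C1qc and the adaptor gene Tyrobp led per length. Trem2, a lipid-sensing receptor, averaged 1284 ± 75.9 CPM in microglia and 15.3 ± 7.46 CPM in astrocytes. Tmem119 averaged 116 ± 27 CPM in microglia and 1.26 ± 0.442 CPM in astrocytes. The ADP receptor gene P2ry12, a marker of surveying microglia, was low for a defining gene, with 23.2 to 63.4 CPM (median 32.5) in the microglia libraries, against 0.885 to 2.34 CPM (median 1.83) in the astrocyte libraries, yet above astrocytes (log2 fold change 4.32, SE 0.27, edgeR adjusted p = 2.43e-08). Siglech and Slc2a5 of the same list were too low to test, at 0.0403 against 0.0293 CPM and 0.145 against 0.0456 CPM. Sall1, a transcription factor that marks microglia within the brain, went against its list: it had 10.0 to 17.3 CPM (median 13) in the microglia libraries, against 89 to 102 CPM (median 95.3) in the astrocyte libraries (log2 fold change -2.84, SE 0.07, edgeR adjusted p = 1.1e-12). The groups did not overlap for Sall1.

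Genes shared by macrophages of many tissues were more than 4-fold higher in microglia for 18 of 18, against 11.1% of all genes tested. Their median was 6.48. Lyz2 and Ctss led per length, and Ptprc, the leukocyte antigen CD45, averaged 729.7 CPM in microglia and 3.31 CPM in astrocytes. Markers of macrophages at brain borders and of monocytes were mixed, with 6 of 10 tested higher and 4 lower. The shares over all genes tested were 41.6% and 47.9%. Past 4-fold, 4 were higher and 3 lower, against 11.1% and 23.7% of all genes. Ms4a7 averaged 1252 CPM in microglia and 5.21 CPM in astrocytes, Clec12a 378 CPM in microglia and 0.694 CPM in astrocytes, Ccr2 4.2 CPM in microglia and 0.019 CPM in astrocytes and Pf4 24.9 CPM in microglia and 0.325 CPM in astrocytes. Mrc1, the mannose receptor CD206, averaged 134 ± 38 CPM in microglia and 29.1 ± 13.9 CPM in astrocytes. Lyve1, a hyaluronan receptor of perivascular macrophages and lymphatic cells, was instead higher in the astrocyte cultures, with 0 to 0.0954 CPM (median 0.0252) in the microglia libraries, against 4.3 to 13 CPM (median 6.46) in the astrocyte libraries (log2 fold change -8.06, SE 0.52, edgeR adjusted p = 3.89e-08). Cd163, Cbr2 and F13a1 were lower in microglia too, at 0.00683 against 0.84 CPM, 0.381 against 10.7 CPM and 1.28 against 5.91 CPM. Lyve1 was highest in astrocyte libraries 5 and 3 (13 and 11.4 CPM), which also had the highest levels of the macrophage gene Mpeg1 (68.1 and 91.8 CPM, against 28.6 to 49.8 CPM in the other 4), and the part of other macrophages in this difference was not tested. Lymphocyte and neutrophil markers were near 0: 10 of 13 were too low to test, and their sums were 2.96 to 8.52 CPM in the microglia libraries and 0.275 to 0.58 CPM in the astrocyte libraries.

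Genes described in microglia around amyloid plaques were high in these cultures. Of 24 tested, 20 were higher in microglia (16 more than 4-fold) and 3 lower, against 41.6% (11.1%) and 47.9% of all genes tested. Their median was 5.25. Gpnmb, a lysosomal membrane glycoprotein, averaged 8738 ± 1085 CPM in microglia and 83.3 ± 42.3 CPM in astrocytes. Lpl, lipoprotein lipase, had 2641 to 3047 CPM (median 2964) in the microglia libraries, against 8.55 to 12 CPM (median 10.5) in the astrocyte libraries (log2 fold change 8.13, SE 0.10, edgeR adjusted p = 1.12e-15). Clec7a, the beta-glucan receptor dectin-1, averaged 681 CPM in microglia and 2.53 CPM in astrocytes, the growth factor gene Igf1 1101 CPM in microglia and 5.27 CPM in astrocytes and Lgals3 1150.3 CPM in microglia and 5.71 CPM in astrocytes. Per length, Spp1 reached 20752 TPM in microglia, beside 37.5 TPM for P2ry12 and 129.8 TPM for Tmem119. The members lower in microglia were Csf1 (6.64 against 377 CPM), Ank (174 against 378 CPM) and, by a small margin, Axl (189.9 against 221 CPM).

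Innate sensing genes followed the macrophage pattern with a few exceptions. Of 19 tested Toll-like receptor and adaptor genes 17 were higher in microglia and 1 lower, against 41.6% and 47.9% of all genes tested. Their median was 5.50. Tlr13, a sensor of bacterial ribosomal RNA in mice, averaged 649.8 CPM in microglia and 5.83 CPM in astrocytes, Tlr2 404 CPM in microglia and 2.89 CPM in astrocytes and Tlr7 332 CPM in microglia and 6.64 CPM in astrocytes. Tlr4, the lipopolysaccharide receptor, averaged 57.3 ± 4.57 CPM in microglia and 10.3 ± 1.52 CPM in astrocytes. Tlr3, a receptor for double-stranded RNA, was the member lower in microglia, with 23.7 to 28.2 CPM (median 25.9) in the microglia libraries, against 68.4 to 79.1 CPM (median 73.2) in the astrocyte libraries (log2 fold change -1.50, SE 0.04, edgeR adjusted p = 4.75e-13). Fc and engulfment receptor genes were higher for 16 of 21 and lower for 4, against the same 41.6% and 47.9% of all genes. Fcgr2b averaged 1366 CPM in microglia and 9.18 CPM in astrocytes, Msr1 605 CPM in microglia and 4.55 CPM in astrocytes and Stab1 3401 CPM in microglia and 99.2 CPM in astrocytes. The engulfment receptor Megf10 and its adaptor Gulp1 were the astrocyte members, with 0.277 to 1.1 CPM (median 0.547) in the microglia libraries, against 241 to 284 CPM (median 257) in the astrocyte libraries for Megf10 (log2 fold change -8.78, SE 0.23, edgeR adjusted p = 9.02e-12) and 0.203 against 78.9 CPM for Gulp1. Of the TAM receptors, which bind Gas6 and Pros1 on dying cells, Mertk averaged 558 CPM in microglia and 78.8 CPM in astrocytes, Axl 189.9 CPM in microglia and 221 CPM in astrocytes and Tyro3 0.99 CPM in microglia and 6.2 CPM in astrocytes.

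Of 18 tested complement genes 11 were higher in microglia and 7 lower, against 41.6% and 47.9% of all genes tested. C1qa, a subunit of the initiating C1q complex, had 2830.4 to 3797 CPM (median 3058) in the microglia libraries, against 39.1 to 143 CPM (median 82.1) in the astrocyte libraries (log2 fold change 5.14, SE 0.32, edgeR adjusted p = 3.01e-08). The receptors for the C3 and C5 fragments were microglial as well, with C3ar1 at 1215 CPM in microglia and 8.47 CPM in astrocytes and C5ar1 at 354 CPM in microglia and 3.32 CPM in astrocytes. The proteases of the C1 complex, C4b and C3 lay on the astrocyte side. C4b had 0.184 to 0.885 CPM (median 0.519) in the microglia libraries, against 93.7 to 142 CPM (median 117) in the astrocyte libraries (log2 fold change -7.89, SE 0.24, edgeR adjusted p = 3.89e-11). C3, the central component, averaged 102 ± 23.6 CPM in microglia and 552 ± 142 CPM in astrocytes, C1s1 0.208 CPM in microglia and 11.3 CPM in astrocytes and C1ra 2.48 CPM in microglia and 15.1 CPM in astrocytes. The inhibitor gene Serping1 averaged 0.207 CPM in microglia and 66.1 CPM in astrocytes.

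Antigen presentation genes were higher in microglia for 17 of 18 tested, against 41.6% of all genes tested. The class I genes H2-D1 and H2-K1 averaged 1858 against 178 CPM and 1103 against 239 CPM. Class II genes were low in both: Cd74, the invariant chain, averaged 2.86 ± 0.706 CPM in microglia and 0.18 ± 0.0904 CPM in astrocytes, and H2-Ab1 0.998 ± 0.243 CPM in microglia and 0.079 ± 0.0406 CPM in astrocytes. The class II activator Ciita was the 1 member lower in microglia, at 0.127 against 0.57 CPM. Signalling genes of the hematopoietic cytoskeleton, such as Hcls1, Coro1a, Vav1 and Syk, were higher for 24 of 24, 23 of them more than 4-fold, against 41.6% and 11.1% of all genes tested. They had a median of 6.47 and sums of 12371 to 12784 CPM in the microglia libraries and 173 to 302 CPM in the astrocyte libraries.

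**Figure D3:**
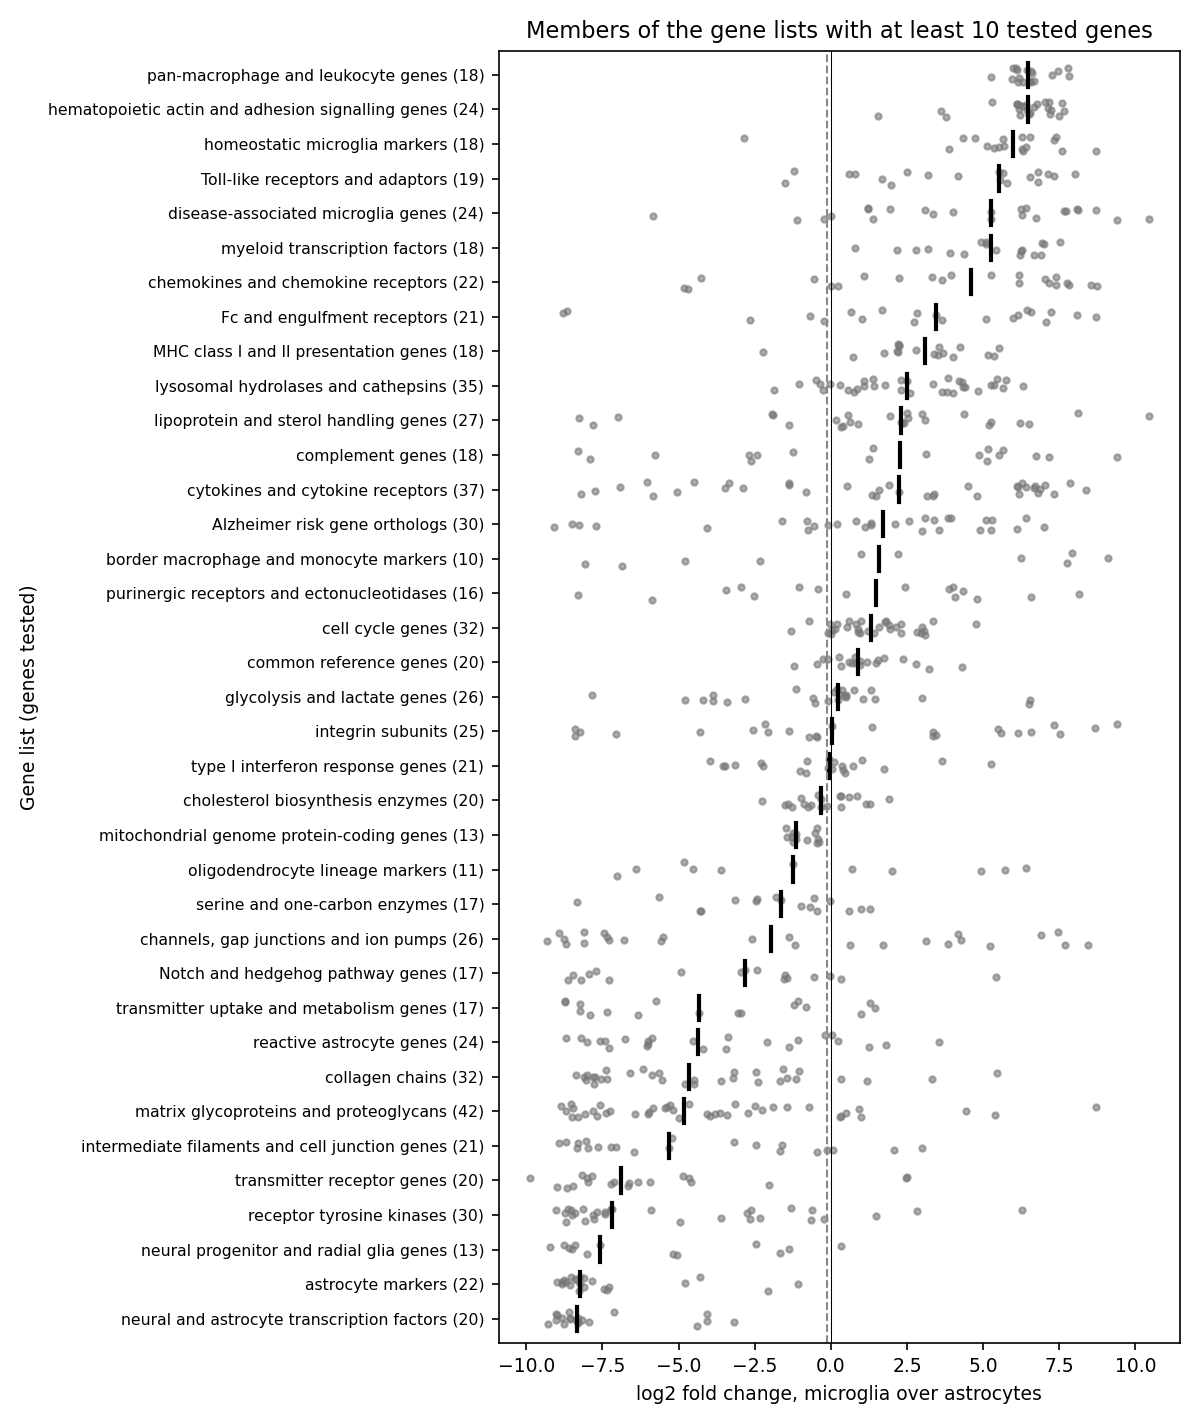
Log2 fold change, microglia over astrocytes, of each tested member of the gene lists (points), with the list median (bar) and the median of all tested genes, -0.13 (dashed line). Lists run from macrophage genes, at medians above 5, to astrocyte markers and transcription factors, at medians near -8.

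Lysosomal genes were mostly higher in microglia. Of 35 genes of lysosomal hydrolases, cathepsins and lysosomal membrane proteins, 29 were higher in microglia, 20 of them more than 4-fold, and 5 were lower. Over all genes tested these shares were 41.6%, 11.1% and 47.9%. The 35 genes had a median of 2.50. Their summed level was 67297 to 76649 CPM in the microglia libraries and 9777 to 10857 CPM in the astrocyte libraries. Ctsd, an aspartic protease, averaged 23675 ± 1480.2 CPM in microglia and 625 ± 84.1 CPM in astrocytes, Ctsb 18622 ± 691 CPM in microglia and 1833 ± 92.2 CPM in astrocytes and Ctss 3463 ± 235 CPM in microglia and 44.2 ± 17 CPM in astrocytes. Psap, the precursor of the saposins, was high per length in both, with 5441 ± 330.1 TPM in microglia and 5521 ± 84.9 TPM in astrocytes. These TPM values carry no TMM scaling and do not give its difference between the cell types. Smpd1, acid sphingomyelinase, was lower in microglia, with 28.9 to 31.5 CPM (median 30.9) in the microglia libraries, against 109 to 116 CPM (median 110.5) in the astrocyte libraries (log2 fold change -1.87, SE 0.03, edgeR adjusted p = 3.98e-15), and Ctso and Ctsf were lower too (69.9 against 144 CPM and 65.9 against 92.7 CPM).

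Lipid handling differed by step. Of 27 tested lipoprotein and sterol genes 20 were higher in microglia and 6 lower, with a median of 2.32. Uptake and hydrolysis were microglial: Lrp1, a lipoprotein receptor, averaged 3949 CPM in microglia and 702 CPM in astrocytes, Lipa, the acid lipase, 1471 CPM in microglia and 40.4 CPM in astrocytes, and Npc2 1342 CPM in microglia and 269.7 CPM in astrocytes. Of the efflux transporter genes, Abcg1 averaged 193 CPM in microglia and 2.12 CPM in astrocytes and Abca1 1462 CPM in microglia and 981 CPM in astrocytes. The call of Abca1 was lost with library totals (log2 fold change 0.09, edgeR adjusted p = 0.327). On the astrocyte side, Clu, which encodes clusterin (apolipoprotein J), had 4.84 to 13.3 CPM (median 8.67) in the microglia libraries, against 2739 to 2828 CPM (median 2794) in the astrocyte libraries (log2 fold change -8.28, SE 0.28, edgeR adjusted p = 1.08e-10). Lcat, which esterifies cholesterol on lipoproteins, averaged 0.279 CPM in microglia and 35.1 CPM in astrocytes and Cyp7b1, a hydroxylase of oxysterols, 0.0873 CPM in microglia and 19 CPM in astrocytes. Of 20 cholesterol biosynthesis enzymes 7 were higher and 11 lower (3 and 12 with library totals), shares near the 41.6% and 47.9% of all genes tested. None was past 4-fold in either direction, against 11.1% and 23.7% of all genes, and the median was -0.33. Hsd17b7 and Fdft1 averaged 26.5 against 75.2 CPM and 32.5 against 86.3 CPM. Ebp averaged 29.8 against 8.02 CPM and Dhcr7 45.8 against 20.7 CPM.

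Astrocyte markers were lower in microglia for 22 of 22, 20 of them more than 4-fold, against 47.9% and 23.7% of all genes tested. Their median was -8.24. Per length the highest in astrocytes were Aldoc, Gfap, Clu and Atp1b2. Glul, glutamine synthetase, was shared more than the rest, with 828 to 1023 CPM (median 884) in the microglia libraries, against 1749 to 2199.7 CPM (median 1923) in the astrocyte libraries (log2 fold change -1.07, SE 0.06, edgeR adjusted p = 1.47e-09), while the serine transporter gene Slc7a10 and the calcium-binding protein gene S100b were low in both, at 0.0413 against 0.172 CPM and 0.135 against 3.64 CPM. Genes of radial glia and neural progenitors were lower for 12 of 13 tested: Vim averaged 995 ± 197 CPM in microglia and 5377 ± 156 CPM in astrocytes, Nes 47.8 ± 3.59 CPM in microglia and 153 ± 17.2 CPM in astrocytes, Sox2 0.977 CPM in microglia and 375 CPM in astrocytes and Pax6 0.39 CPM in microglia and 137 CPM in astrocytes.

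Transmitter handling was astrocytic. Genes of transmitter uptake and metabolism were lower in microglia for 14 of 17, 11 of them more than 4-fold. These shares were 47.9% and 23.7% over all genes tested. Slc1a2, the glutamate transporter GLT-1, averaged 1.31 CPM in microglia and 396 CPM in astrocytes, the glutamine transporter Slc38a3 1.41 CPM in microglia and 589 CPM in astrocytes, and Abat, which degrades GABA, 1.52 CPM in microglia and 632 CPM in astrocytes. The amino acid transporter gene Slc38a2 was among the 3 members higher in microglia (146 against 53.4 CPM). Transmitter receptors were lower for 18 of 20 tested, with a median of -6.88. The AMPA receptor subunit genes Gria1 and Gria3 averaged 0.529 against 264 CPM and 0.74 against 257 CPM, and the GABA-A subunit Gabrb1 0.85 against 343 CPM. The beta-1 adrenoceptor gene Adrb1 was lower in microglia, at 0.732 against 17.7 CPM.

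Of 26 channel, gap junction and pump genes 11 were higher in microglia and 15 lower, shares near the 41.6% and 47.9% of all genes tested. Many of these differences were large, with 9 more than 4-fold higher and 13 more than 4-fold lower, against 11.1% and 23.7% of all genes. The potassium channel genes Kcnn4, Kcna3 and Kcnk13 and the proton channel Hvcn1 were microglial, at 79.1 against 0.231 CPM, 27.7 against 0.137 CPM, 79 against 4.33 CPM and 125 against 0.725 CPM. Kcnj10, the potassium channel Kir4.1, had 6.56 to 10.5 CPM (median 8.2) in the microglia libraries, against 778 to 978 CPM (median 939) in the astrocyte libraries (log2 fold change -6.79, SE 0.13, edgeR adjusted p = 2.87e-13), and Gja1, connexin 43, averaged 1.43 CPM in microglia and 222 CPM in astrocytes. Purine receptor and ectonucleotidase genes were higher for 8 of 16 and lower for 7, also near those shares. Past 4-fold, 8 were higher and 5 lower, against 11.1% and 23.7% of all genes. P2ry6, a UDP receptor, averaged 292 CPM in microglia and 3.1 CPM in astrocytes, P2rx4 301 CPM in microglia and 18.8 CPM in astrocytes and Entpd1, which degrades ATP, 181 CPM in microglia and 10.8 CPM in astrocytes. The adenosine A1 receptor gene Adora1 averaged 0.811 CPM in microglia and 258 CPM in astrocytes, P2ry1 4.69 CPM in microglia and 50.6 CPM in astrocytes and Nt5e, which makes adenosine, 3.81 CPM in microglia and 21.3 CPM in astrocytes.

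Of 26 tested glycolysis and lactate genes 14 were higher in microglia and 10 lower, which turned to 7 and 15 with library totals, against 41.6% and 47.9% of all genes tested. Several gene families had another leading member in each cell type. Of the summed hexokinase level per length, Hk1 made up 8.1% (range 7.08% to 9.03%) in microglia and 77% (range 75% to 79%) in astrocytes, Hk2 37.1% in microglia and 20.4% in astrocytes, and Hk3 54.8% in microglia and 2.55% in astrocytes. Of phosphofructokinase, the liver form Pfkl was 60.7% in microglia and 4.46% in astrocytes and the muscle form Pfkm 22.4% in microglia and 63.8% in astrocytes. Of aldolase, Aldoa was 98.3% (range 97.5% to 98.6%) in microglia and 16.5% (range 15% to 17.3%) in astrocytes, the rest being Aldoc, the brain form. Of lactate dehydrogenase, Ldha was 69.8% (range 68% to 72.5%) in microglia and 8.07% (range 7.89% to 8.28%) in astrocytes, the rest being Ldhb. Of the monocarboxylate transporters Slc16a1 and Slc16a3 (MCT1 and MCT4), Slc16a3 was 78% to 82.2% in the microglia libraries and 0.226% to 0.414% in the astrocyte libraries. Of the sodium pump beta subunits, Atp1b3 was 98.5% in microglia and 5.0% in astrocytes and Atp1b2 1.3% in microglia and 88.9% in astrocytes. The families were picked after the values were seen, so their shares are a description with no test.

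**Figure D4:**
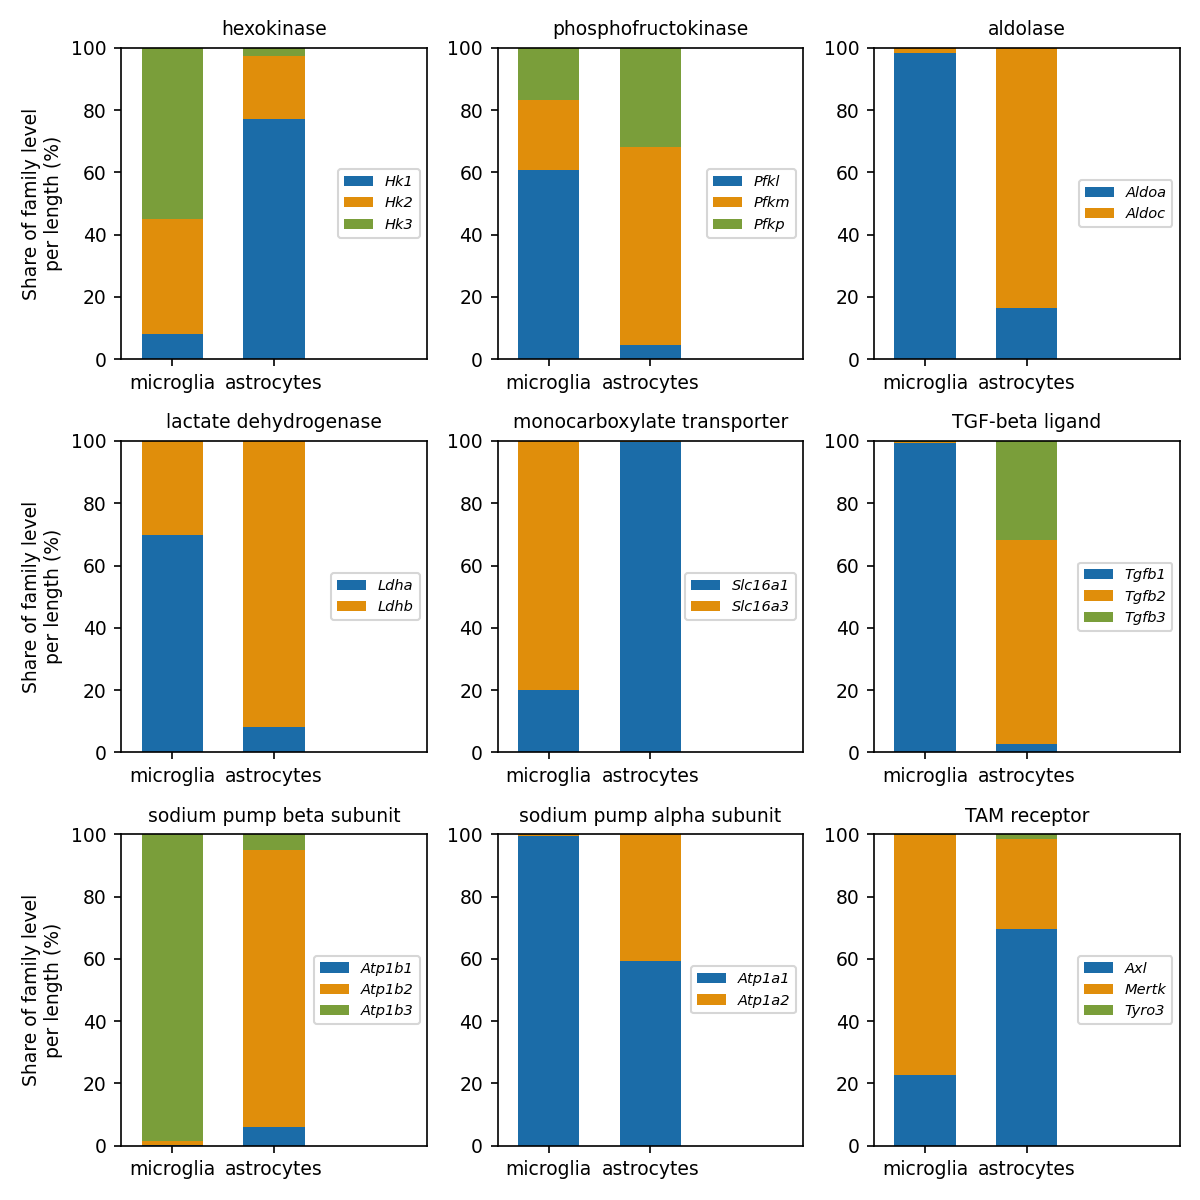
Share of each gene family's summed per-length level held by each member, in percent, for microglia (left bar of each pair) and astrocytes (right bar). Bars are means over 6 libraries; Hk3 holds 54.8% of hexokinase in microglia and 2.55% in astrocytes.

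Glycogen phosphorylase Pygb was lower in microglia, with 113 to 116 CPM (median 114) in the microglia libraries, against 1563 to 1768 CPM (median 1634) in the astrocyte libraries (log2 fold change -3.86, SE 0.03, edgeR adjusted p = 8.63e-17). Serine and one-carbon enzymes were lower for 13 of 17, 7 of them more than 4-fold, against 47.9% and 23.7% of all genes tested. Gldc, the glycine cleavage decarboxylase, averaged 0.723 CPM in microglia and 231 CPM in astrocytes, Phgdh, the first enzyme of serine synthesis, 3.05 CPM in microglia and 58.8 CPM in astrocytes, and Psat1 37.8 CPM in microglia and 203 CPM in astrocytes. All 13 protein-coding genes of the mitochondrial genome were lower in microglia, none more than 4-fold, with a median of -1.15. mt-Cytb, a subunit of complex III, had 1322 to 1768 CPM (median 1684) in the microglia libraries, against 4059 to 4721 CPM (median 4365) in the astrocyte libraries (log2 fold change -1.43, SE 0.07, edgeR adjusted p = 1.4e-10). mt-Co2, mt-Co3, mt-Atp6 and mt-Nd3 have under 15 CPM in both cell types beside 7612 and 9971 CPM for mt-Co1. Nuclear copies of these genes make the level of each uncertain.

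The matrix was mainly astrocytic, with microglial exceptions. Collagen chain genes were lower in microglia for 28 of 32 tested, 23 more than 4-fold, against 47.9% and 23.7% of all genes tested. Their median was -4.64. Col4a1 and Col4a2, the basement membrane chains, averaged 0.71 against 183 CPM and 0.41 against 66.8 CPM, and Col11a1 0.351 against 113 CPM. Col15a1 and Col14a1 were the members more than 4-fold higher in microglia, at 17.7 against 0.404 CPM and 12.1 against 1.22 CPM. Matrix glycoproteins and proteoglycans were lower for 34 of 42. Sparc, a collagen-binding glycoprotein, had 6.32 to 21.9 CPM (median 9.85) in the microglia libraries, against 3321 to 4235 CPM (median 4008) in the astrocyte libraries (log2 fold change -8.30, SE 0.42, edgeR adjusted p = 4.04e-09). Sparcl1 averaged 3.67 CPM in microglia and 809.8 CPM in astrocytes, the synaptogenic thrombospondin Thbs1 7.15 CPM in microglia and 1088 CPM in astrocytes and the glypican Gpc4 0.667 CPM in microglia and 306 CPM in astrocytes. Besides Spp1, the members more than 4-fold higher in microglia were Sdc3, a syndecan (318 against 14.6 CPM), and the laminin chain Lama3 (25.8 against 0.618 CPM). The summed level of the list, 11502 to 16617 CPM in the microglia libraries and 9648 to 11361 CPM in the astrocyte libraries, ran against its median of -4.83, with Spp1 at 13297 CPM of the microglia sum. Integrins split by partner. The leukocyte chains Itgb2, Itgam, Itgal and Itgax were microglial, with Itgb2 at 1116 CPM in microglia and 11.8 CPM in astrocytes. Itga1, Itga3, Itga7 and Itgb8 were astrocytic, with Itgb8, which activates latent TGF-beta, at 1.38 CPM in microglia and 403 CPM in astrocytes. Itgb5 had 1983 to 2460.1 CPM (median 2227) in the microglia libraries, against 198 to 223 CPM (median 202) in the astrocyte libraries (log2 fold change 3.44, SE 0.05, edgeR adjusted p = 9.51e-16).

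Intermediate filament and cell junction genes, taken as 1 list, were lower in microglia for 16 of 21 (N-cadherin gene Cdh2, 1.74 against 708 CPM). Fat3, a protocadherin, was the member more than 4-fold higher (235 against 29.8 CPM). Receptor tyrosine kinases were lower for 26 of 30, against 47.9% of all genes tested, with a median of -7.20. Ntrk2, the BDNF receptor, had 3.9 to 13.6 CPM (median 6.32) in the microglia libraries, against 2572 to 2729 CPM (median 2608) in the astrocyte libraries (log2 fold change -8.40, SE 0.41, edgeR adjusted p = 2.79e-09), and Fgfr1, Fgfr3 and Ddr1 averaged 2.33 against 628 CPM, 1.1 against 405 CPM and 1.83 against 653 CPM. Csf1r, Mertk and Epha2 of the 30 were higher in microglia. Notch and hedgehog genes were lower for 14 of 17. Jag1, a Notch ligand, was more than 4-fold higher, with 111 to 144 CPM (median 126) in the microglia libraries, against 2.49 to 3.28 CPM (median 2.99) in the astrocyte libraries (log2 fold change 5.42, SE 0.08, edgeR adjusted p = 1.11e-14), while Notch1 and Notch2 averaged 54.6 against 154 CPM and 164 against 479 CPM, and the hedgehog co-receptors Gas1 and Boc 0.389 against 149 CPM and 0.326 against 112 CPM.

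Across 66 ligand and receptor pairs with 56 ligand and 55 receptor genes, 14 of 53 tested ligands were more than 4-fold higher in microglia and 24 more than 4-fold lower. Among 52 tested receptors 23 were more than 4-fold higher and 19 more than 4-fold lower. Over all genes tested these shares were 11.1% and 23.7%. In 13 pairs the ligand was lower and the receptor higher in microglia, in 5 the reverse held, in 9 both were higher and in 9 both were lower. Csf1, the ligand of Csf1r, had 5.55 to 8.74 CPM (median 6.41) in the microglia libraries, against 346 to 409 CPM (median 375) in the astrocyte libraries (log2 fold change -5.83, SE 0.10, edgeR adjusted p = 7.16e-14), and Il34, its other ligand, averaged 0.12 ± 0.0501 CPM in microglia and 7.87 ± 1.15 CPM in astrocytes. The fractalkine gene Cx3cl1 averaged 0.518 ± 0.163 CPM in microglia and 14.1 ± 1.78 CPM in astrocytes, Cd200 0.479 ± 0.193 CPM in microglia and 38.4 ± 1.98 CPM in astrocytes, and its receptor Cd200r1 99.2 ± 3.57 CPM in microglia and 0.648 ± 0.339 CPM in astrocytes. Il33 averaged 0.0571 ± 0.0477 CPM in microglia and 1.3 ± 0.143 CPM in astrocytes and Cxcl12 0.141 ± 0.0288 CPM in microglia and 2.71 ± 0.343 CPM in astrocytes, opposite their receptors Il1rl1 (0.791 against 0.00931 CPM) and Cxcr4 (319 against 20.9 CPM). In the reverse sense, Osm, oncostatin M, averaged 23.3 CPM in microglia and 0.195 CPM in astrocytes and its receptor gene Osmr 0.393 CPM in microglia and 114 CPM in astrocytes. Il1b averaged 5.86 ± 2.28 CPM in microglia and 0.0574 ± 0.0307 CPM in astrocytes, and its receptor Il1r1 0.226 CPM in microglia and 49.4 CPM in astrocytes. Pdgfb averaged 273 CPM in microglia and 18.7 CPM in astrocytes, and its receptor Pdgfrb 0.41 CPM in microglia and 89.3 CPM in astrocytes. Sema4d averaged 429 CPM in microglia and 18.9 CPM in astrocytes and its receptor Plxnb1 1.71 CPM in microglia and 632 CPM in astrocytes.

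The TGF-beta ligands changed member. Of their summed level per length, Tgfb1 was 99.5% (range 99.4% to 99.6%) in microglia and 2.75% (range 1.54% to 3.81%) in astrocytes, and Tgfb2 0.174% (range 0.144% to 0.213%) in microglia and 65.5% (range 63.8% to 66.7%) in astrocytes. Both receptors were higher in microglia, with Tgfbr1 at 2149 ± 249 CPM in microglia and 29.4 ± 2.77 CPM in astrocytes and Tgfbr2 at 588 ± 92.7 CPM in microglia and 56.2 ± 4.2 CPM in astrocytes. Of 37 tested cytokine and receptor genes 24 were higher in microglia and 13 lower, against 41.6% and 47.9% of all genes tested. Tnf averaged 59.8 ± 9.39 CPM in microglia and 0.263 ± 0.128 CPM in astrocytes, while Il6 was too low to test (0.0354 against 0.019 CPM) and Il10 likewise (0.137 against 0.00723 CPM). Chemokine genes were mostly low: 13 of 35 were too low to test. Of the 22 tested 16 were higher in microglia, against 41.6% of all genes tested. Cxcl16 averaged 469 CPM in microglia and 2.8 CPM in astrocytes and Ccl3 31.7 CPM in microglia and 0.435 CPM in astrocytes.

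Cell cycle genes were higher in microglia for 24 of 32, 9 of them more than 4-fold, and lower for 2, or 19 and 6 with library totals. Among all genes tested 41.6% were higher, 11.1% more than 4-fold higher, and 47.9% lower. The licensing factor Cdt1 had 33.6 to 43.9 CPM (median 41.1) in the microglia libraries, against 0.997 to 1.68 CPM (median 1.51) in the astrocyte libraries (log2 fold change 4.78, SE 0.10, edgeR adjusted p = 2.15e-13), Mcm6 averaged 91.9 ± 13.7 CPM in microglia and 11.7 ± 0.781 CPM in astrocytes and Mki67, the antigen Ki-67, 24.1 ± 10.6 CPM in microglia and 3.26 ± 0.833 CPM in astrocytes. Top2a averaged 17.7 ± 6.92 CPM in microglia and 17.2 ± 1.66 CPM in astrocytes, which the test did not separate. Rrm2 and Mcm4 were lower in microglia, at 4.46 against 10.6 CPM and 17.7 against 29.1 CPM. Of 21 interferon response genes 6 were higher, 9 lower and 6 not called, or 4 higher and 12 lower with library totals, against 41.6% higher and 47.9% lower over all genes tested. Bst2 averaged 439.7 ± 53.8 CPM in microglia and 36.2 ± 9.93 CPM in astrocytes and Oas1a 24.6 ± 2.93 CPM in microglia and 0.685 ± 0.379 CPM in astrocytes, whereas Ifit2 and Ifit3 averaged 8.76 ± 3.0 CPM in microglia and 95.8 ± 6.02 CPM in astrocytes and 7.63 ± 1.95 CPM in microglia and 71 ± 35.5 CPM in astrocytes. Ifit3 in astrocytes was led by library 3 with 138 CPM, against 35.8 to 74.4 CPM in the other 5. Reactive astrocyte genes were lower in microglia for 19 of 24, against 47.9% of all genes tested. Lcn2 averaged 1.23 CPM in microglia and 208 CPM in astrocytes, Serpina3n 4.95 CPM in microglia and 321 CPM in astrocytes and Hspb1 2.04 CPM in microglia and 217 CPM in astrocytes. Cd44 and Psmb8 of that list were higher in microglia, at 283 against 80.2 CPM and 72.3 against 6.18 CPM.

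Mouse orthologs of Alzheimer risk genes were higher in microglia for 20 of 30, 15 of them more than 4-fold. They were lower for 8, 5 of them more than 4-fold, and the list median was 1.71. Of all tested genes, 41.6% were higher and 47.9% lower, with 11.1% and 23.7% past 4-fold in those directions. Besides Apoe, Trem2 and Spi1 above, Inpp5d, a lipid phosphatase, averaged 667 CPM in microglia and 9.59 CPM in astrocytes, Grn 2406 CPM in microglia and 168 CPM in astrocytes, Bin1 267 CPM in microglia and 25.6 CPM in astrocytes and Picalm 733 CPM in microglia and 123 CPM in astrocytes. On the astrocyte side, Sorl1, a sorting receptor for App, had 35.3 to 53.5 CPM (median 44.3) in the microglia libraries, against 656 to 820.4 CPM (median 733) in the astrocyte libraries (log2 fold change -4.07, SE 0.10, edgeR adjusted p = 3.33e-12), and Fermt2 averaged 0.959 CPM in microglia and 203 CPM in astrocytes. App itself averaged 728 ± 21.3 CPM in microglia and 1243 ± 70.5 CPM in astrocytes.

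Genes often used as constant references differed as well. Of 20, 16 were higher in microglia, 4 of them more than 4-fold, and 3 lower, or 14 and 5 with library totals. Among all genes tested 41.6% were higher, 11.1% more than 4-fold, and 47.9% lower. Actb, beta-actin, averaged 7123 ± 363 CPM in microglia and 1376 ± 61.4 CPM in astrocytes, Hprt 218 ± 15.3 CPM in microglia and 23.3 ± 1.96 CPM in astrocytes, B2m 2055 ± 116 CPM in microglia and 298 ± 47 CPM in astrocytes and Gusb 915 ± 77.3 CPM in microglia and 46.2 ± 7.21 CPM in astrocytes. Sdha, a subunit of complex II, averaged 243 ± 2.24 CPM in microglia and 559.7 ± 19.4 CPM in astrocytes. Pgk1 averaged 277 ± 18.8 CPM in microglia and 295 ± 5.29 CPM in astrocytes (log2 interval -0.18 to 0.00).

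Markers of other brain cells were low in both cultures, with exceptions in each. Of 14 neuron markers 8 were too low to test, and Stmn2, a microtubule regulator, led with 0.104 against 22.4 CPM. In astrocyte cultures Foxj1, a factor of ciliated cells, averaged 179 CPM and Acta2 308 CPM, against 0.433 and 1.09 CPM in microglia, while the choroid plexus gene Ttr stood at 1.93 against 1.77 CPM and the fibroblast gene Col1a1 at 0.625 against 2.0 CPM. Olig1 averaged 0.476 against 39.9 CPM, beside 0.0459 against 0.159 CPM for Sox10. In microglia cultures single genes of other lineages were high, beside some markers of the same lineages at low levels. Of 11 tested oligodendrocyte lineage markers 4 were higher in microglia and 6 lower. Of 7 tested endothelial markers 5 were higher and 2 lower, against 41.6% and 47.9% of all genes tested. Mag had 2.08 to 3.13 CPM in the microglia libraries, against 0 to 0.092 CPM in the astrocyte libraries. Cspg4, the antigen NG2, averaged 108 ± 31.6 CPM in microglia and 3.51 ± 0.16 CPM in astrocytes and Mbp 90.1 ± 3.94 CPM in microglia and 1.06 ± 0.269 CPM in astrocytes, beside 0.138 against 1.36 CPM for Pdgfra and 0.0147 against 0.141 CPM for Mog. Flt1 averaged 242 ± 22.2 CPM in microglia and 5.28 ± 1.01 CPM in astrocytes and Vwf 41.6 ± 18.4 CPM in microglia and 1.01 ± 0.157 CPM in astrocytes, beside 0.021 against 0.029 CPM for Cldn5 and 0.369 against 0.129 CPM for Pecam1. The part of other cells in these levels was not tested.

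Each culture held a trace of the other cell's genes. The 18 pan-macrophage genes stood in astrocyte cultures at a median of 1.12% of their microglia level (range 0.446% to 2.6%). By library this median ran from 0.67% in astrocyte library 6 to 1.72% in library 3 and 1.5% in library 5. The 20 neural transcription factor genes stood in microglia cultures at a median of 0.312% of their astrocyte level, from 0.141% in microglia library 5 to 0.408% in library 3. The part of cells of the other type in these traces was not tested. Of 4286 genes with at least 50 CPM in microglia, 29 had a log2 fold change over 8, and of 3842 with at least 50 CPM in astrocytes 257 lay between -9 and -8 and 22 at or under -9.

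**Figure D5:**
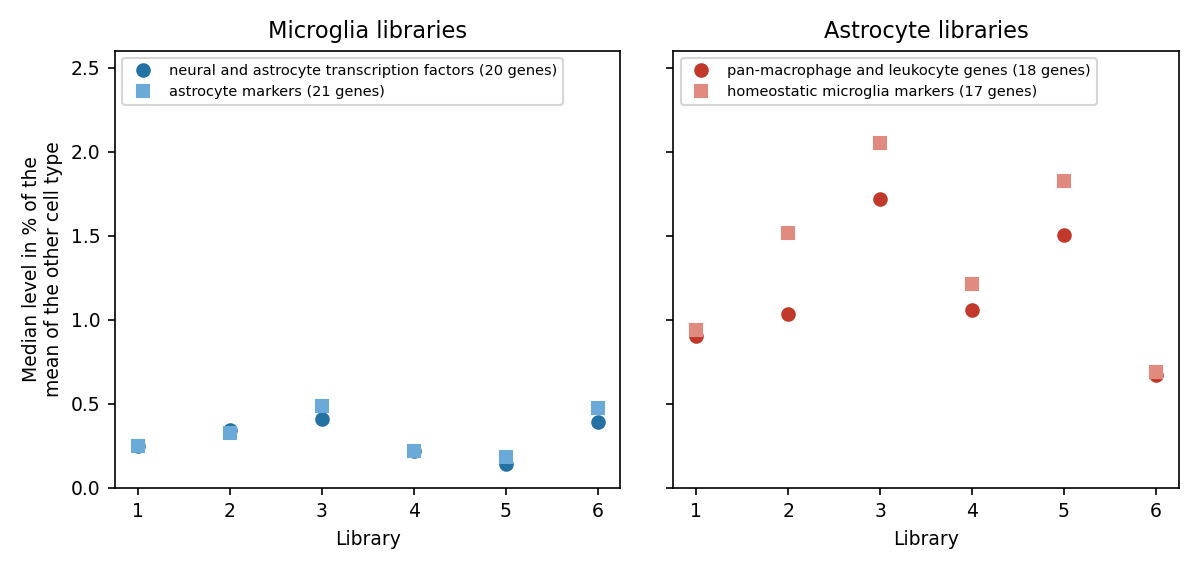
Median level, per library, of each cell type's genes in libraries of the other, in percent of their mean level in their own cell type. On the left, 20 neural transcription factor genes and 21 astrocyte markers in the microglia libraries; on the right, 18 pan-macrophage genes and 17 homeostatic markers in the astrocyte libraries, which are highest in libraries 3 and 5.

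Within each cell type the libraries were close, and the most variable abundant genes differed in kind. The common biological coefficient of variation was 0.120 in microglia and 0.0973 in astrocytes. Among autosomal genes with at least 50 CPM the most variable in microglia were CT010467.1, Mir6236, Lars2 and Malat1, each highest in library 4, then Cd5l, a scavenger protein of macrophages (27.3 to 89 CPM, median 39.8), and Mmp12 (156 to 487 CPM, median 291). Mmp12 had 487, 206, 268, 475, 314 and 156 CPM in microglia libraries 1 to 6. In astrocytes they were Gpnmb (41.8 to 156 CPM, median 67.8), Ifit3, C1qc, C1qa (39.1 to 143 CPM, median 82.1), Mpeg1 and Stab1. All 5 of these other than Ifit3 are macrophage genes, and each was highest in astrocyte library 3 and next highest in library 5.

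Sex accounted for few calls in edgeR with all libraries. Of 19331 genes, 14 (0.0724%) differed between male and female microglia and 11 (0.0569%) between male and female astrocytes in edgeR's quasi-likelihood test. All but 4 of the 14 and each of the 11 lie on the X or Y chromosome. Ddx3y, on Y, averaged 138 CPM in male and 0.188 CPM in female microglia, and 100.2 and 0.169 CPM in male and female astrocytes. The X-linked genes Xist, Kdm6a, Eif2s3x, Kdm5c and Pbdc1 were called lower in males in both. Of autosomal genes, Tob1 (10.0 CPM in male and 12.9 CPM in female microglia, edgeR adjusted p = 0.0114), Pdpn (6.13 and 8.7 CPM, adjusted p = 0.0351), Dok7 (0.302 and 0.61 CPM, adjusted p = 0.0481) and the predicted gene D930048N14Rik were called lower in male microglia. All 3 named genes stood higher in astrocytes, at 103, 258 and 18.5 CPM, and the part of astrocyte RNA in these calls was not tested. Of 3 astrocyte markers, Gfap averaged 15.5 CPM in male and 11.9 CPM in female microglia. Aldoc averaged 22.6 and 26.9 CPM and Clu 8.77 and 9.16 CPM in the same order. For each of these markers the ranges of the sexes overlapped. For the difference of the sex effect between the cell types 0 genes were called by edgeR, with 1237 at an unadjusted p under 0.05. DESeq2 called 179 genes in microglia, 156 of them autosomal, and 25 in astrocytes, 12 of them autosomal. Without microglia library 5 edgeR called 216 in microglia, or 9 without microglia library 6, against 14 with all.

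The difference between the cell types was then set against the same difference in the other genotypes of the series, mice with human APOE3 or APOE4 in place of Apoe (APOE33, APOE44) or without Apoe (KO), whose 32 libraries are tagged as batch 1. Genotype and batch cannot be told apart here. Of 17181 WT calls that were tested in both, 15613 (90.9%) were called in the same direction in APOE33, 15551 (90.5%) in APOE44 and 15196 (88.4%) in KO. Opposite calls numbered 198, 220 and 217. Of 6697 genes called more than 4-fold in WT, 6659, 6633 and 6622 were called in the same direction. The 6 defining genes gave no called interaction: Csf1r, for example, had log2 fold changes of 6.27 in WT and 7.42, 7.28 and 6.58 in APOE33, APOE44 and KO (interaction -0.76, SE 0.34, edgeR adjusted p = 0.0899).

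The interaction was called for 6643 of 22498 genes (29.5%), with a median absolute size of 0.42 on the log2 scale, and 1652 were of at least 1. Among genes with a mean of at least 10 CPM over the 44 libraries, predicted genes left out, the 8 with the smallest adjusted p were Bloc1s3, Anxa2, Camk2n1, Slc4a2, Rbpms, Slc2a9, Trim35 and Fam20c. Camk2n1, an inhibitor of CaM kinase II, averaged 2.56 CPM in WT microglia and 120.2 CPM in WT astrocytes, on the scale of the joint fit. In APOE33, APOE44 and KO microglia it averaged 25.3, 22.8 and 19.7 CPM (interaction -3.48, SE 0.19, edgeR adjusted p = 1.26e-15). Anxa2, a membrane-binding annexin, averaged 234 CPM in WT microglia, against 77.7, 81.3 and 106 CPM in microglia of the 3 other genotypes, with 168 CPM in WT astrocytes (interaction 1.63, SE 0.09, edgeR adjusted p = 3.14e-16). Fam20c, a secretory-pathway kinase, was higher in microglia in each genotype, with log2 fold changes of 3.79 in WT and 5.16, 4.96 and 5.21 in APOE33, APOE44 and KO (interaction -1.25, SE 0.08, edgeR adjusted p = 2.27e-14). Apoe itself, of which batch 1 mice carry no unedited copy, gave an interaction of 2.21 on the log2 scale (SE 0.22, edgeR adjusted p = 1.32e-09).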

How the data were processed

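Total RNA of cultured cells was sequenced as 150-base read pairs. The deposited table holds raw read counts per gene for 44 libraries, made by the authors with STAR 2.5.3a and featureCounts, per the submitters' processing notes; the mouse build, annotation and use of strand are not stated there. Even counts made up 65.9% to 72.6% of values from 1 to 9 in the WT libraries, so each fragment seems to have been counted by both its reads.

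Of 54146 gene identifiers, 54079 matched GENCODE M21, which gave symbols and exon lengths. edgeR 4.0.16 (R 4.3.3) fitted the 12 WT libraries after filterByExpr and TMM scaling, with means for the 4 groups of cell type and sex, robust quasi-likelihood dispersions and Benjamini-Hochberg adjustment at 0.05. The contrast was averaged over the sexes. A minimum-fold test asked for more than 4-fold. TPM used counts over exon length, without TMM scaling. The interaction used all 44 libraries. DESeq2 1.42.0, other scalings, no filter, no sex term, counts halved, left-out libraries and a replicate block were alternatives. Simulated counts for 19331 genes recovered 50 of 50 genes changed at each of 4 fold sizes, with 7 false calls. Few genes were changed there, equally in both directions and among the more abundant ones. That setting differs from these data, where 89.5% of genes were called, so it does not measure the error of these calls. Same-numbered microglia and astrocyte libraries were of the same sex, and the labels do not say whether they share an animal. Replicate numbers were not used in the main fit.

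Members and gene lists were chosen with earlier results of these data known. The text names the 12 genes of largest change in each direction, the 10 most abundant per length, members of lists and pairs, and genes from the sex, interaction and variability tests. Other list members, gene families and L1cam, Ptgds and Lyz1 were chosen after their values were seen. Some list members are not reported here by name.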

Additional observations from a re-analysis of the deposited data

Results flagged for a closer look

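Within each group of 6 libraries, the 500 gene and cell type sets examined gave 18 in which 1 library lay far from the others; chance gives about 1 in 20. In microglia library 4, CT010467.1 reached 12428 CPM, Lars2 1681 CPM, Malat1 3153 CPM, Mir6236 447 CPM and Nes 54.5 CPM, each the highest of the 6. In microglia library 3, Aldoc was highest at 35.2 CPM, while Flt1, Ldhb and Lpl were lowest at 199.9, 86.7 and 2641 CPM. In microglia library 6, Hspb1 and Itgam were highest at 4.16 and 394 CPM, and Slc4a2 was lowest at 71.2 CPM. In microglia library 1, Csf1 and Hcls1 were highest at 8.74 and 786 CPM. In astrocyte library 6, Atp1b2 and P2ry1 were highest at 3585 and 64.5 CPM, and Cd44 was lowest at 71.4 CPM. In astrocyte library 1, Ptgds was highest at 37.4 CPM. The cause of these values was not tested.

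By the interaction test in edgeR, called for 29.5% of all genes, the difference between the cell types in WT was unlike that in the batch 1 genotypes for 14 genes listed here. Of these, 8 were named for their small adjusted p, and L1cam and Ptgds were picked after their values were seen, so the number of calls says nothing further. The interaction, on the log2 scale, was above 0 for Ptgds (4.99), L1cam (5.01), Apoe (2.21), Anxa2 (1.63), Slc4a2 (1.30), Bloc1s3 (0.87), Trim35 (0.78) and Malat1 (0.73). It was below 0 for Camk2n1 (-3.48), Wnt7a (-2.32), Rbpms (-2.12), Slc2a9 (-1.34), Fam20c (-1.25) and Cst3 (-0.52). Genotype and batch cannot be told apart in these values.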

How the results depend on the processing

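The count of genes called was 17293 and ran from 16085 with counts halved to 20879 with no filter, and left-out libraries gave 17241 to 17644. More than 4-fold, the alternatives gave 6185 to 8413, and left-out libraries 6725 to 6970, against 6724. Calls split into 8033 higher and 9260 lower in microglia with TMM, and 5818 and 11491 with library totals. The median of integrin genes, 0.03 with TMM, was -0.46 with library totals, that of glycolysis genes, 0.22 with TMM, was -0.27, and Aldoa, Anxa2 and Slc4a2 turned to -0.13, -0.077 and -0.11; this scaling shifts the median of all genes by -0.49. Of 6275 values for 299 genes named, 6233 kept direction and call, 22 lost and 17 gained the call. For sex, DESeq2 called 179 genes in microglia and 25 in astrocytes, no filter gave 39 in microglia, and left-out libraries gave 9 to 216 in microglia and 9 to 13 in astrocytes, against 14 and 11; the cause was not tested. The interaction gave 5360 to 7135 calls, against 6643. With the replicate block 17115 genes were called, 6617 more than 4-fold. Same-numbered libraries correlated at -0.04 to 0.02, none best with its own number. Such correlations, taken between different cell types, cannot show whether the libraries are paired. Levels under 3 counts in a library, 0.0232 to 0.0360 CPM, are not resolved.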

Other observations

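A few genes not described above were picked after their values were seen, for their level in WT microglia beside microglia of the batch 1 genotypes, on the CPM scale of the joint fit. L1cam, a neural adhesion molecule, averaged 18.1 CPM in WT microglia, against 0.959, 1.44 and 0.812 CPM in APOE33, APOE44 and KO microglia. Lyz1, a lysozyme gene near-identical to Lyz2, averaged 599 CPM in WT microglia, against 171, 116 and 155 CPM in the same order. Ptgds, prostaglandin D synthase, averaged 2.32 CPM in WT microglia, against 0.065, 0.070 and 0.0574 CPM. The interaction was called for L1cam (interaction 5.01, SE 0.32, edgeR adjusted p = 1.46e-14) and Ptgds (interaction 4.99, SE 0.32, edgeR adjusted p = 2.83e-14) but not for Lyz1 (interaction -0.49, SE 0.31, edgeR adjusted p = 0.259). The levels within microglia were not tested. Genotype and batch cannot be told apart in them.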
